A study of Drosophila melanogaster with 6 samples.

Results

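The Hsp70 and Hsp90 chaperones are 7 genes of the fly chosen by gene symbol: Hsp83, Hsc70-1, Hsc70-2, Hsc70-3, Hsc70-4, Hsc70-5 and Hsp68. All 7 were found among the 17737 genes of the count, normalized count and TPM tables, and the rule uses symbols alone, although it was set with earlier results of these data known. They were measured by RNA-seq in PPL1-γ1pedc dopamine neurons, which innervate the γ1pedc region of the mushroom body, the olfactory memory center of the fly brain. The comparison asks which transcripts differ once Stromalin (gene SA), a subunit of the cohesin complex, is reduced in these neurons. In the Stromalin KD group, UAS-Stromalin RNAi, UAS-mCD8:GFP and UAS-dicer2 were driven by ΔTH-D'-GAL4, and in the control group the same driver expressed mCD8:GFP and dicer2 with a control transgene. Each group has 3 libraries, and each library holds 25 GFP+ neurons picked by hand from 3rd instar brains at 120 h after egg laying. Animals of both groups were kept at 25 °C on a cycle of 12 h light and 12 h dark. The neurons of a library come from many dissociated brains, pooled, and each library was collected on a day of its own, so that genotype, day and pool of animals vary together within a library. All brains of both genotypes were dissected at room temperature, kept on ice and dissociated with collagenase and papain before the neurons were picked.

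Hsp70 proteins bind and release unfolded stretches of other proteins, in a cycle of ATP hydrolysis that J-domain proteins start and nucleotide exchange factors end. Hsp90 proteins take over part-folded clients, such as kinases and receptors, with a large set of co-chaperones. In neurons, the cytosolic Hsp70 and its J-domain partner Csp sit at synaptic vesicles, and Hsp70 with auxilin strips clathrin from endocytosed vesicles. Each compartment has its own member, and a further set of genes is switched on by heat shock factor (Hsf) when proteins misfold.

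Total counts in genes were 8638734 to 9624935 in Stromalin KD and 7790921 to 9625056 in control. Genes of ribosomal RNA took 18.8% to 21.5% of the counts in Stromalin KD and 16.6% to 30.3% in control, the highest share being in control 1. Between 2751 and 4331 genes had a count in the Stromalin KD libraries, and between 2691 and 4467 in the controls. SA itself had 3, 0 and 0 counts in Stromalin KD 1 to 3 and 0, 0 and 1372 in controls 1 to 3, so that the knockdown cannot be read from SA in these libraries. The dopamine genes ple, Vmat, DAT and Ddc reached 10 counts in every library (summed counts 137796 to 358355 in Stromalin KD, 145245 to 364250 in control). Of markers of other cells, 4 of 7 glial genes had a count somewhere (sums of 0 to 1617 in Stromalin KD and 3 to 3824 in control), 1 of 5 neuroblast genes (0 to 800 in Stromalin KD, 0 to 244 in control) and 7 of 10 blood cell and fat body genes (3 to 6005 in Stromalin KD, 0 to 10970 in control). Of 8 genes of other transmitters 4 had a count, and their sums did not overlap between the genotypes, at 500 to 2548 in Stromalin KD and 0 to 112 in control. Most of these were counts of VGAT, the vesicular GABA transporter, with 1762, 500 and 1737 in Stromalin KD 1 to 3 and 112, 0 and 0 in controls 1 to 3, while Gad1, which makes GABA, was at 0 throughout. VGAT was called by neither tool (edgeR log2 fold change 4.86, SE 3.92, unadjusted p = 0.216, DESeq2 adjusted p = 0.644). Groups that do not overlap were found for 6.62% of all tested genes. The part of the other-transmitter counts in the chaperone values was not tested. Also at 0 in all libraries were repo, wrapper and alrm of the glial list, ase, wor, dpn and mira of the neuroblast list, and ChAT, Trh and Tdc2. The highest sum of fat body genes was in control 2.

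Hsp83, Hsc70-4 and Hsc70-3 were among the most abundant transcripts of these neurons, and each was found in every library at over 1000 counts. Mean TPM over the 6 libraries was 1207 ± 555 for Hsc70-3, 1071 ± 571 for Hsc70-4 and 957 ± 439 for Hsp83 (SD, n = 6), which are the ranks 53, 59 and 70 of 17737 genes by mean TPM. These neighbors do not differ beyond their spread, and their order changed from library to library. Hsp68 followed at 89.2 ± 107 TPM (rank 1626) and Hsc70-5 at 87.2 ± 160 TPM (rank 1658), which likewise lie within the spread of each other. Hsc70-1 and Hsc70-2 had 0 counts in all 6 libraries. Together, the 7 genes took 0.351 ± 0.0782% of the gene counts in Stromalin KD and 0.375 ± 0.101% in control (SD, n = 3 each). The 3 abundant genes made up 94.8% to 100% of that sum in Stromalin KD and 90.2% to 99.8% in control. In bulk samples, fewer cells that express a gene and less RNA per cell cannot be told apart.

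**Figure D1:**
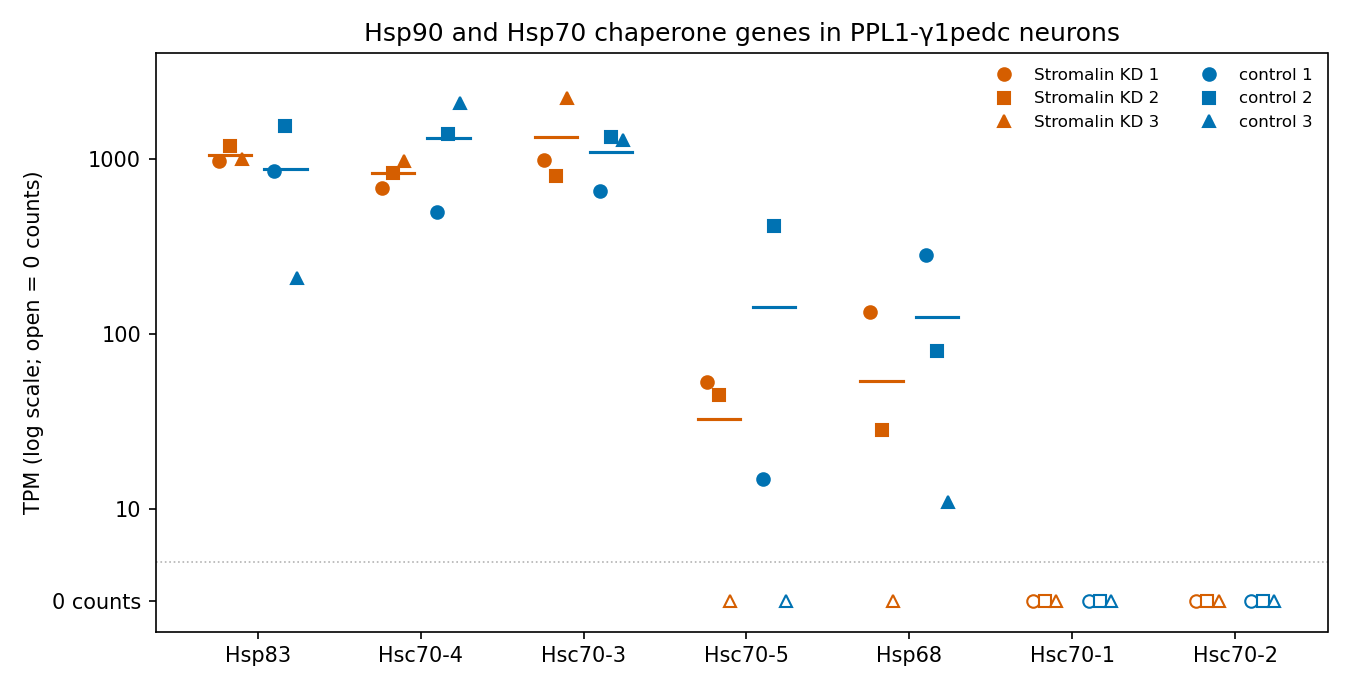
TPM of the 7 chaperone genes in each library, on a log axis, with Stromalin KD in orange left of control in blue. Short lines are means of 3 libraries, and open symbols mark 0 counts; Hsp83, Hsc70-4 and Hsc70-3 lie near 1000 TPM, with control 3 low for Hsp83 (209 TPM).

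Hsp83, the cytosolic Hsp90, had 966, 1177 and 993 TPM in Stromalin KD 1 to 3, against 854, 1543 and 209 TPM in controls 1 to 3. The Stromalin KD values lie inside the range of the controls, with control 2 the highest library of all and control 3 the lowest. The raw counts behind them were 9470, 10917 and 8257 in Stromalin KD and 7807, 14424 and 1771 in control. In normalized CPM, counts scaled to library size with TMM factors, the mean was 1055 ± 48.7 in Stromalin KD and 918 ± 610 in control (SD, n = 3 each). In edgeR, the log2 ratio of Stromalin KD to control came to 0.20 (SE 0.88, 95% interval -1.53 to 1.93), with an exact permutation p of 1.0 on normalized CPM. Without control 3, the fold change turned to -0.26. In the BDGP6 build, Hsp83 spans 3192969 to 3197059 of chromosome 3L, plus strand, and has 2 annotated transcripts of 2 exons each and the coding part in 1 of the exons. Its 3' end shares 15 exonic bases with CG14966 on the opposite strand, which had 0 counts in every library.

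Hsc70-4 encodes the main cytosolic Hsp70, the ATPase that uncoats clathrin vesicles. It had 684, 829 and 964 TPM in Stromalin KD 1 to 3, against 499, 1386 and 2062 TPM in controls 1 to 3. Here too the Stromalin KD libraries lie between the lowest and the highest control, and control 3, the lowest library for Hsp83, was the highest for Hsc70-4. Normalized CPM averaged 765 ± 110 in Stromalin KD and 1295 ± 775 in control (SD, n = 3 each). The log2 fold change was -0.76 (SE 0.87, 95% interval -2.46 to 0.94), with an exact permutation p of 0.4. Without control 3 it was -0.20. The gene is on chromosome 3R, positions 15242687 to 15246614, plus strand, with 7 transcripts that have 1 or 2 exons and share a coding length of 1956 bases in a single exon.

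Hsc70-3, the Hsp70 of the endoplasmic reticulum known as BiP, helps newly made secreted and membrane proteins to fold. It had 982, 791 and 2202 TPM in Stromalin KD 1 to 3, against 655, 1331 and 1282 TPM in controls 1 to 3. Stromalin KD 3 was the highest library, and the other Stromalin KD libraries fell among the controls. Normalized CPM averaged 1637 ± 943 in Stromalin KD and 1418 ± 362 in control (SD, n = 3 each). The log2 fold change was 0.21 (SE 0.71, 95% interval -1.19 to 1.60), with an exact permutation p of 0.9, and without Stromalin KD 3 it turned to -0.35. The gene is on chromosome X, positions 11801696 to 11807117, minus strand, with 5 transcripts and 2 coding exons.

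Hsc70-5, the mitochondrial Hsp70, which pulls imported proteins into the matrix and folds them there, had 512, 413 and 0 counts in Stromalin KD 1 to 3, against 135, 3783 and 0 counts in controls 1 to 3. In TPM this was 52.9, 45.1 and 0 in Stromalin KD and 14.95, 410 and 0 in control. It was absent from the counts of 1 library per genotype, and control 2 held most of its counts. That library also had the most genes with a count, 4467, and the most counts of the fat body list; whether these bear on Hsc70-5 was not tested. The log2 fold change was -1.96 (SE 3.43, 95% interval -8.69 to 4.76) with an exact permutation p of 0.9, and without control 2 it turned to 1.72. Hsc70-5 lies on chromosome 2R, minus strand, with 6 exons, all coding.

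Hsp68, a member of the family that heat and other stress induce, had 982, 198 and 0 counts in Stromalin KD 1 to 3, against 1955, 560 and 70 counts in controls 1 to 3. In TPM this was 133, 28.3 and 0 in Stromalin KD and 284, 79.5 and 10.95 in control. The groups overlap, with control 1 highest and Stromalin KD 3 at 0, where 3 counts would be 0.347 CPM. The log2 fold change was -1.36 (SE 3.41, 95% interval -8.04 to 5.32), with an exact permutation p of 0.6, and without control 1 it turned to 0.47. Control 1 is also the library with the largest share of ribosomal RNA, 30.3%, whose part in this value was not tested. Hsp68 is a gene of 1 exon on chromosome 3R, positions 24055080 to 24057310, minus strand, and shares 13 exonic bases at its 3' end with CG6000, which had 0 counts in every library. Zeros at this level were common: of the 1868 genes with a mean TPM from 50 to 200, 67.1% had 0 counts in at least 1 library.

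Hsc70-1 and Hsc70-2, further members of the Hsp70 family, are on chromosome 3L at 13974061 to 13977761 and on chromosome 3R at 13044759 to 13047388, both on the plus strand. With 0 counts in each library, levels of up to 0.312 to 0.385 CPM per library (3 counts, counting error only), or 0.0569 CPM over all 6, cannot be told from none. No fold change can be given for either.

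None of the 7 genes was called. Of the 5 with at least 10 counts in at least 2 libraries, 0 passed edgeR's quasi-likelihood test (threshold 0.05, adjusted p = 0.9996 for each), where 0.0489% of 4093 tested genes were called, 2 in number. The unadjusted p was 0.820 for Hsp83, 0.382 for Hsc70-4, 0.770 for Hsc70-3, 0.567 for Hsc70-5 and 0.690 for Hsp68 in the same edgeR fit, and 0 of the 5 fell under 0.05, as 3.23% of tested genes did. DESeq2, the tool of the study, called 0 of the 5 and 5.46% of the 2930 genes to which it gave an adjusted p. For 0 of the 5 did the groups fail to overlap, which was so for 6.62% of tested genes. The median log2 fold change of the 5 was -0.76, the value of Hsc70-4, against 0.07 over all tested genes. Of the 5, 2 had a positive and 3 a negative fold change. Without regard to sign, the median log2 fold change over all tested genes was 1.59. For Hsp83, Hsc70-4 and Hsc70-3 the 95% intervals hold changes of more than 2-fold, and for Hsc70-5 and Hsp68 they run from -8.69 to 4.76 and from -8.04 to 5.32 on the log2 scale. That no gene passed does not show that the genotypes are alike.

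**Figure D2:**
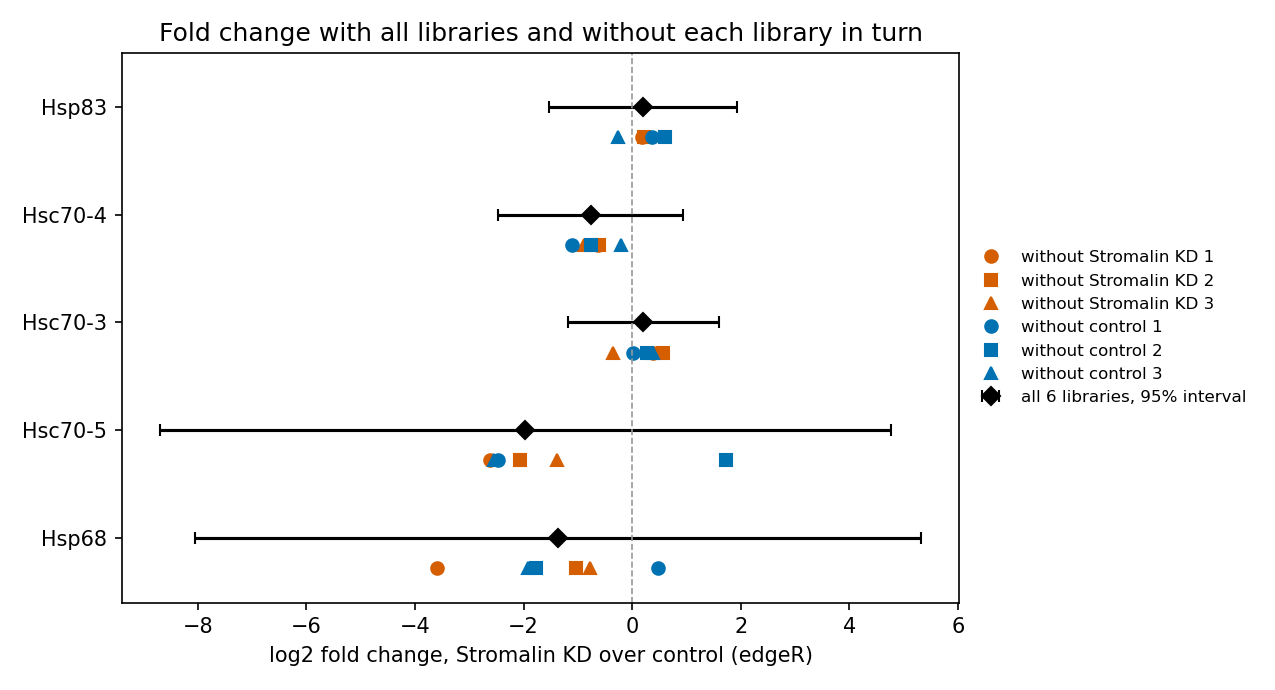
Log2 fold change of the 5 tested genes, Stromalin KD over control. Black diamonds and bars are the edgeR value and 95% interval from all 6 libraries, and colored symbols below each are the values without 1 library; for Hsp83, Hsc70-3, Hsc70-5 and Hsp68 1 library decides the sign, and Hsc70-4 stays between -1.10 and -0.20.

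Ratios between the abundant genes within a library do not depend on the scaling between libraries. The ratio of Hsc70-4 to Hsp83, in TPM, was 0.708, 0.705 and 0.971 in Stromalin KD 1 to 3, against 0.584, 0.898 and 9.87 in controls 1 to 3. In 5 libraries of both genotypes the cytosolic Hsp70 and Hsp90 transcripts thus stood near 1 to 1, with Hsp83 the higher, and in control 3 alone Hsc70-4 was in large excess. Hsc70-3 over Hsp83 was 1.02, 0.673 and 2.22 in Stromalin KD and 0.767, 0.863 and 6.14 in control, again with control 3 apart. Hsc70-3 over Hsc70-4 had the smaller range, 0.954 to 2.28 in Stromalin KD and 0.622 to 1.31 in control, and overlapped between the genotypes. By TPM within its library, Hsp83 ranked 729 in control 3 and between 53 and 129 in the other 5 libraries, and Hsc70-4 ranked 48 in control 3 and between 62 and 229 in the others.

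**Figure D3:**
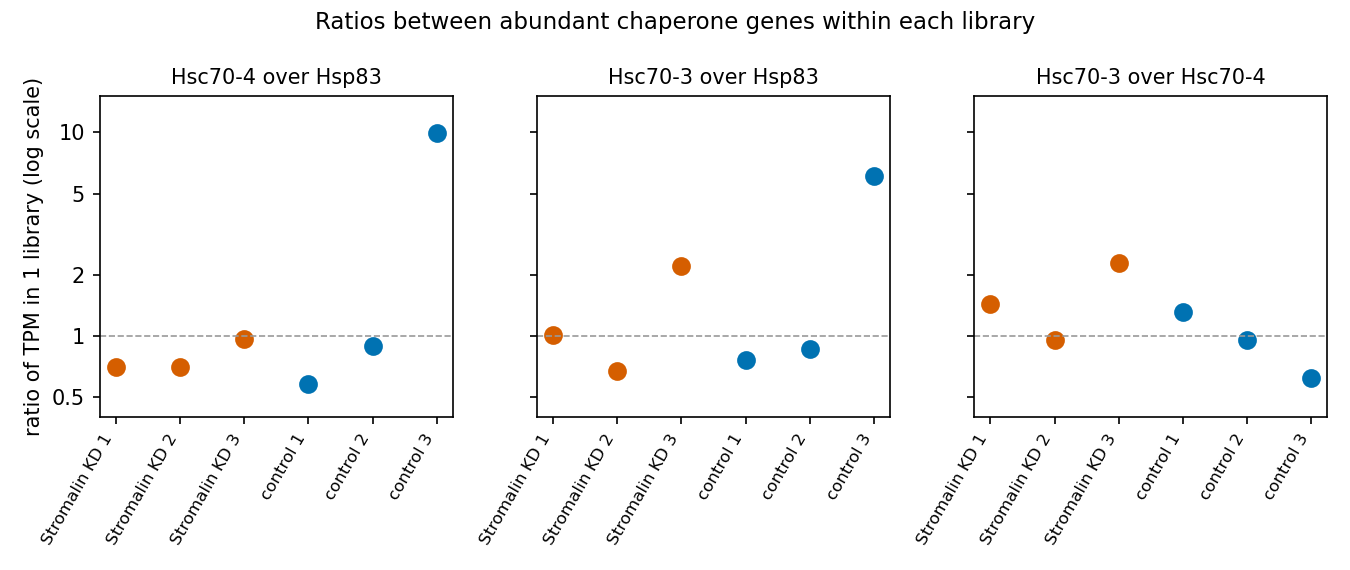
Ratios of TPM between the 3 abundant chaperone genes in each library, on a log axis, with Stromalin KD in orange left of control in blue; the dashed line marks equal TPM. Control 3 stands apart in both ratios over Hsp83, at 9.87 and 6.14.

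The abundant chaperones varied less over the libraries than most genes found in every library. The coefficient of variation of normalized CPM over the 6 libraries was 39.99% for Hsp83, 42.6% for Hsc70-3 and 55.7% for Hsc70-4. These are the percentiles 10.3, 11.8 and 24.9 among the 1001 genes that reached 10 counts in each of the 6 libraries, whose median was 76.3%. Abundant genes varied less in general, with a median of 49.8% for the 135 of them at a mean of 500 TPM or more. Hsc70-4 lay above that median, and Hsp83 and Hsc70-3 lay below it. By genotype, Hsp83 varied by 4.62% in Stromalin KD and 66.5% in control, Hsc70-4 by 14.4% and 59.9%, and Hsc70-3 the other way, by 57.6% and 25.5%. With 3 libraries each, these differences in spread were not tested. For Hsp83, control 3 stood apart at 235 normalized CPM, against 1109 and 1410 in controls 1 and 2. For Hsc70-4, control 3 was the highest at 2128 normalized CPM, but controls 1 and 2 also differed, at 594 and 1162. Of the 1001 genes, 54.6% had the smaller coefficient in Stromalin KD.

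**Figure D4:**
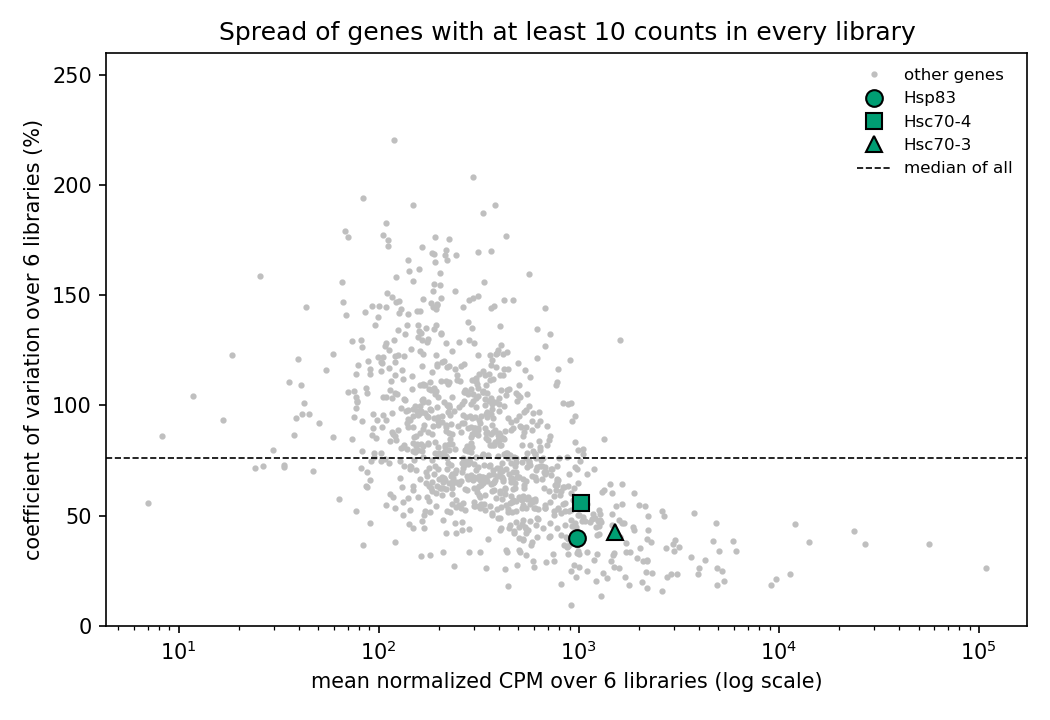
Coefficient of variation over the 6 libraries against mean normalized CPM (log axis) for the 1001 genes with at least 10 counts in every library. Hsp83 and Hsc70-3 (39.99% and 42.6%) lie well below the median of 76.3%, drawn as a dashed line, and Hsc70-4 (55.7%) nearer to it. The median of genes at a mean of 500 TPM or more was 49.8%.

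The genes whose log2 normalized CPM followed each abundant chaperone most closely over the 6 libraries differed between the 3. For Hsp83 they were CG6024 (Pearson r = 0.99), Gug (0.98), E2f1 (0.97), CG5065 (0.97) and wry (0.97), and all 5 had their lowest count in control 3, such as 32 for Gug, a transcriptional corepressor, and 12 for E2f1, a cell cycle transcription factor. For Hsc70-4 they were Dp1 (0.95), the glycolytic Gapdh1 (0.95), the vesicle kinesin unc-104 (0.88), the translation factor eEF1gamma (0.88) and Rbcn-3A (0.87), all with their highest count in control 3. For Hsc70-3 they were HDAC4 (0.98), a histone deacetylase, ctrip (0.93), the transcription factor zld (0.92), CG43901 (0.91) and the protease CalpA (0.91). Among the chaperones, r was -0.80 between Hsp83 and Hsc70-4, 0.49 between Hsc70-3 and Hsc70-4 and -0.27 between Hsp83 and Hsc70-3. These values describe 6 libraries that share depth and normalization, 1000 genes were compared with each, and no value without control 3 was computed.

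Of other genes of the chaperone network, 76 were listed and 73 matched a gene name in the tables. Of these, 58 had a count in some library, 50 were tested and 8 reached 10 counts in every library. In edgeR 0 of the 50 were called. An unadjusted p under 0.05 was found for 2 of them, 1 higher and 1 lower, beside 3.23% of all tested genes. Their median log2 fold change was -0.26, against 0.07 over all tested genes. DESeq2 called 4 of the 33 to which it gave an adjusted p: 3 were higher, where 3.14% of all genes were, and 1 was lower, where 2.32% were.

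Csp, the J-domain protein of synaptic vesicles that works with Hsc70-4, was the most abundant of the partners found everywhere, at 665 ± 201 TPM in Stromalin KD and 466 ± 232 TPM in control (SD, n = 3 each). It had 8740, 6598 and 3939 counts in Stromalin KD 1 to 3, against 4780, 6596 and 1921 counts in controls 1 to 3, and the groups overlap (log2 fold change 0.44, SE 1.12). aux, the auxilin that recruits Hsc70-4 to clathrin coats, had 2910, 856 and 1429 counts in Stromalin KD and 16, 1817 and 14 in control, with control 2 between the Stromalin KD values (log2 fold change 1.71, SE 2.77). Droj2, another J-domain protein, averaged 338 ± 250 TPM in Stromalin KD and 235 ± 228 TPM in control. Tpr2, which carries a J domain and TPR repeats, had 117, 3311 and 122 counts in Stromalin KD and 201, 620 and 14039 in control, the last of which is again control 3 (log2 fold change -2.47, SE 1.52). CG3061, listed as a J-domain protein, averaged 247 ± 107 TPM in Stromalin KD and 129 ± 175 TPM in control. Of the 29 J-domain genes matched, 19 were tested, 12 with a positive and 7 with a negative fold change, and 0 were called in edgeR.

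Hsc20, the J-domain protein of mitochondrial iron-sulfur cluster assembly, had 0, 222 and 1258 counts in Stromalin KD 1 to 3 and 0 counts in all controls. It was called by DESeq2 (adjusted p = 0.0349). In edgeR its log2 fold change was 11.97 (SE 6.25, unadjusted p = 0.0555). The mean of Stromalin KD was 480-fold a floor of 3 counts in the 3 controls together. That floor covers counting error only, so the ratio is no lower limit for a difference between genotypes. Stromalin KD 3 carries this ratio, which is 89.9-fold without it. CG7133, also listed as a J-domain protein, was at 0, 531 and 4568 counts in Stromalin KD and at 0 in control, and was also called by DESeq2. Both genes were missing from 1 Stromalin KD library as well as from the controls. Among 16 Hsp90 partners, nudC was called higher by DESeq2 (adjusted p = 0.0386), with 900, 1 and 78 counts in Stromalin KD and 1, 0 and 0 in control. PpD3, a protein phosphatase that binds Hsp90, was called lower by DESeq2 (adjusted p = 0.0027), with 0, 0 and 1 counts in Stromalin KD and 4791, 17 and 2317 in control. None of the 4 genes had an adjusted p under 0.05 in edgeR.

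None of the 16 listed Hsp90 partners reached 10 counts in every library. Hsp83 did, as did 1001 of the 4093 tested genes. CG16817, the listed partner with the highest mean TPM (492), had 1381, 901 and 0 counts in Stromalin KD and 5094, 1067 and 1769 in control. Stip1, the adaptor that hands clients from Hsp70 to Hsp90, had 291, 771 and 3 counts in Stromalin KD and 0, 8 and 1002 in control. Cdc37, the adaptor for kinases, had 2670, 0 and 1 in Stromalin KD and 9, 1182 and 0 in control. In Stromalin KD 3 only 1 of the 16 partners reached 10 counts, and in control 2, the library with the most, 10 did. Detection differed in general between these 2 libraries, with 2751 and 4467 genes with a count. Of the 73 matched chaperone network genes, 24 and 46 reached 10 counts in them. Hsp83 had 993 and 1543 TPM in these same libraries. CG16817, Stip1 and Cdc37 were picked for the text after their values were seen. The same holds for the list genes of the next 2 paragraphs, except stv, Hsc70Cb and CCT4.

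Heat-inducible genes differed widely between libraries of the same genotype. Hsp70Ab, a copy of the main inducible Hsp70, had 330, 0 and 0.150 TPM in Stromalin KD 1 to 3, against 84.5, 416 and 3.67 TPM in controls 1 to 3. DnaJ-1, the inducible Hsp40, had 468, 0 and 0 TPM in Stromalin KD and 96.6, 301 and 2.58 TPM in control. stv, the BAG protein that releases nucleotide from Hsp70, had 53.7, 38.8 and 29.7 TPM in Stromalin KD and 71.3, 303 and 4.28 TPM in control. Hsp70Bb, another Hsp70 copy, had 145, 224 and 22.1 TPM in Stromalin KD and 2.48, 166 and 0 TPM in control. The genes did not share 1 order of libraries: Hsp68, Hsp70Ab and DnaJ-1 were highest in Stromalin KD 1 and controls 1 and 2, whereas Hsp70Bb was highest in Stromalin KD 2 and low in control 1. Hsp68, Hsp70Ab, Hsp70Bb, DnaJ-1 and stv summed to 1129, 291 and 52.0 TPM in Stromalin KD and 538, 1265 and 21.5 TPM in control. The number of genes with a count was 4331, 3648 and 2751 in Stromalin KD and 2952, 4467 and 2691 in control. It ran in nearly the same order of libraries as the sums, and its part in them was not tested. The day of collection differs for every library, so day and library cannot be told apart here. The 6 Hsp70 copies are near-identical, and the sources used here do not say how the counting placed reads that match several of them, so their split is uncertain. Their summed counts were 3774, 1652 and 189 in Stromalin KD and 828, 4872 and 39 in control. Hsf, the transcription factor of this response, had 0, 2104 and 430 counts in Stromalin KD and 1487, 3185 and 0 in control, and was at 0 in Stromalin KD 1, where the 5 genes summed to 1129 TPM. Its mean was 133 TPM, and 67.1% of genes from 50 to 200 TPM had 0 counts in at least 1 library.

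**Figure D5:**
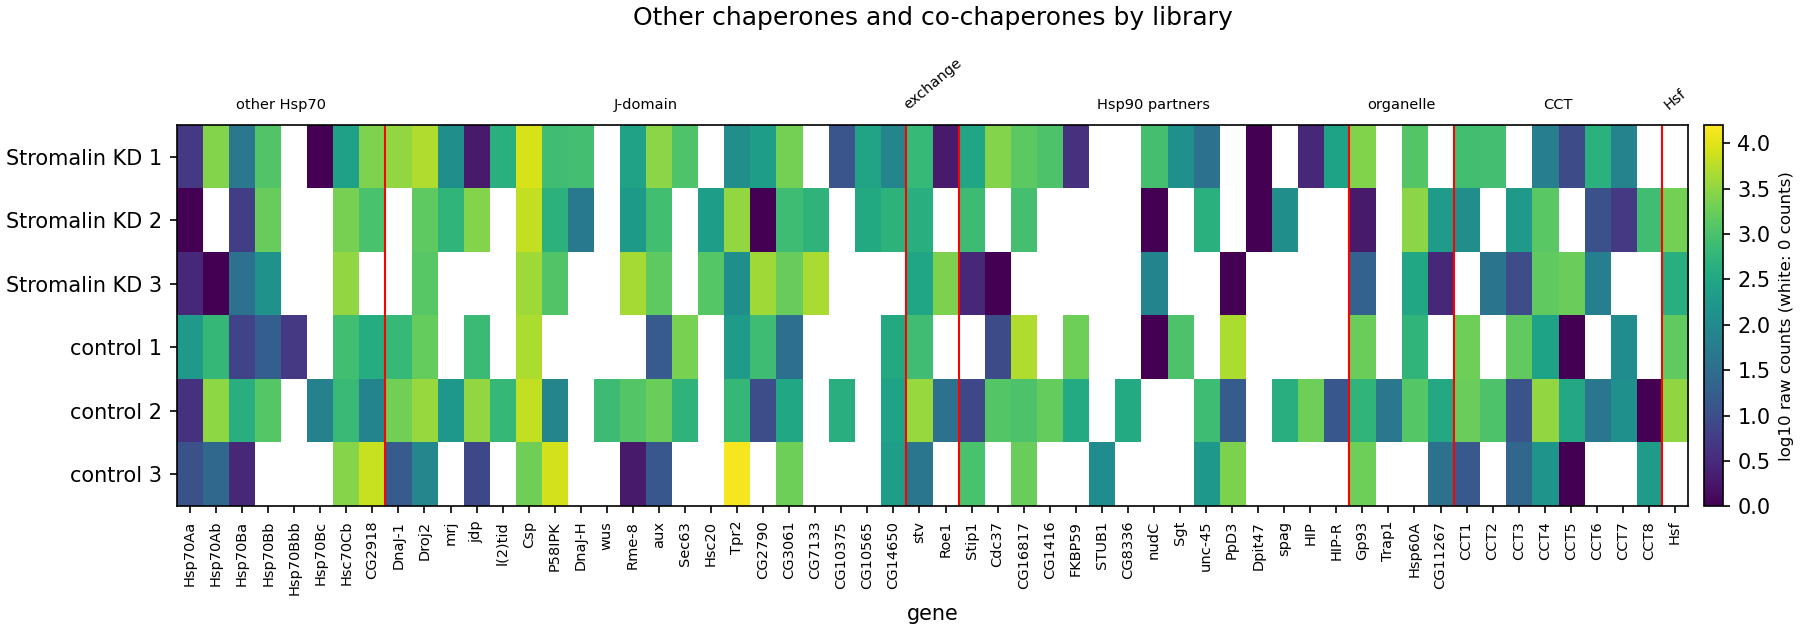
Raw counts, as log10, of the 58 other chaperone and co-chaperone genes with a count in some library; rows are libraries, Stromalin KD above control, columns are genes by list, "exchange" being nucleotide exchange factors, and white is 0 counts. Csp is filled in every row, whereas most genes have gaps in both genotypes.

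The other compartments were covered unevenly. In the endoplasmic reticulum, CG2918, the Grp170 partner of Hsc70-3, had 2467, 976 and 0 counts in Stromalin KD and 397, 80 and 6913 in control, and Gp93, the Hsp90 of this compartment, 2510, 2 and 21 in Stromalin KD and 1828, 569 and 1909 in control. Stromalin KD 3, the library with the most Hsc70-3, was thus among the lowest for both of these genes. P58IPK, listed with the J-domain partners of Hsp70, differed, with 820, 492 and 1169 counts in Stromalin KD and 0, 82 and 8161 in control. In Stromalin KD 3, 2751 genes had a count, the fewest among the Stromalin KD libraries. In mitochondria, Hsp60A, the chaperonin beside Hsc70-5, had 1185, 2953 and 317 counts in Stromalin KD and 555, 1246 and 0 in control, and Roe1, the exchange factor of Hsc70-5, 2, 0 and 2310 in Stromalin KD and 0, 37 and 0 in control. Roe1 was highest in Stromalin KD 3, where Hsc70-5 itself had 0 counts. In the cytosol, Hsc70Cb, an Hsp110 that exchanges nucleotide on Hsp70, averaged 173 ± 146 TPM in Stromalin KD and 128 ± 106 TPM in control (SD, n = 3 each). Of the CCT chaperonin, a ring of 8 subunits that folds actin and tubulin, CCT4 alone reached 10 counts in every library, at 172 ± 143 TPM in Stromalin KD and 205 ± 291 TPM in control. All 8 subunits were tested, 4 with a positive and 4 with a negative fold change, and 0 were called.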

How the data were processed

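The authors deposited raw counts per gene. HTSeq 0.9.1 and the build BDGP6 are named in the submitters' processing notes. A deposited signal table holds these counts after the authors' DESeq2 size factors (a constant ratio per library), and a further table gives TPM as deposited by the authors. Not given in the sources used here: aligner, strand setting, gene lengths for TPM, molecular identifiers. The deposited fold changes and p-values were not used. Libraries were grouped by their labels. Replicates were separate collections.

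Counts were fitted in edgeR 4.0.16 (R 4.3.3): a minimum of 10 counts in 2 or more of the 6 libraries (4093 genes), TMM factors, quasi-likelihood test, Benjamini-Hochberg adjustment over all tested genes, threshold 0.05, two-sided. Standard errors and 95% intervals come from the fold change and its test statistic. For normalized CPM, library sizes were multiplied by TMM factors, with a prior count of 2 on the log2 scale. The exact permutation test on normalized CPM was two-sided, its smallest possible p being 0.1. DESeq2 1.42.0, other scalings and filters, the replicate number as a block, leaving out each library, and limma 3.58.1 on log2(TPM + 1), were alternatives. The steps were tested on simulated data: planted changes were recovered at a low spread between replicates (coefficient of variation 31.6%). None were recovered at the common spread estimated over all tested genes (227.6%), so a count of 0 calls says little about the size of changes. Hsp83, Hsc70-3 and Hsc70-4 varied by 39.99% to 55.7% over the 6 libraries, and recovery at that spread was not simulated. A floor of 3 counts covers counting error only, since reads copied from 1 molecule are not independent. Python 3.11.15 was used for the rest. Positions are from the Ensembl 115 annotation of BDGP6, matched by gene ID.

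Members and lists were chosen with earlier results of these data known. Named by rule are all members and the 5 genes with the highest Pearson r to each abundant member. List genes were named by rule if they had 10 counts in every library, an unadjusted p under 0.05 in edgeR or a DESeq2 call. The other chaperone list genes in the text were picked after their values were seen. Cell type markers are given as values only.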

Additional observations from a re-analysis of the deposited data

How the results depend on the processing

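For the 5 tested chaperones no alternative gave a call. Under each setting other than leaving out a library (other tool, scaling, filter, replicate block, TPM), their fold changes kept their direction, from 0.18 to 0.68 for Hsp83, 0.09 to 0.27 for Hsc70-3, -0.80 to -0.46 for Hsc70-4, -2.02 to -0.47 for Hsc70-5 and -2.87 to -1.24 for Hsp68. Leaving out 1 library moved them from -0.26 to 0.61 for Hsp83, -0.35 to 0.57 for Hsc70-3, -1.10 to -0.20 for Hsc70-4, -2.63 to 1.72 for Hsc70-5 and -3.59 to 0.47 for Hsp68, so that only Hsc70-4 kept its direction. The filter of 10 counts in all 6 libraries leaves out Hsc70-5 and Hsp68. With all libraries kept, the median of all genes lay from -0.03 (10 counts in all libraries) to 0.20 (limma on TPM), against 0.07.

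Of all tested genes, 2 were called in the main fit and 160 in DESeq2. In edgeR, 3 were called with RLE scaling factors, 1 without a count filter and 0 with total counts only. Genes with 10 counts in all libraries gave 0 calls, the replicate block 1, and leaving out 1 library 0 to 3. Of the list genes, 0 were called, and 4 in DESeq2. The causes were not tested. Same-numbered libraries showed no clear shared deviation (r = -0.02, -0.01 and 0.02), and r was highest for the own number in replicate 3 alone. Each library was collected on a day of its own, so the replicate numbers mark no shared day. With 3 libraries per genotype, these values cannot settle whether the numbers pair libraries in another way. Without ribosomal RNA genes, the members' share was 0.438% in Stromalin KD and 0.475% in control, against 0.351% and 0.375% of all counts. The ratio for Hsc20 without Stromalin KD 3 was chosen after seeing the data.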
